A study of Mus musculus with 16 samples.

Results

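The transforming growth factor beta (TGF-beta) axis was followed through 9 genes in the adipose tissue of mice lacking phosphoglycerate mutase 1 (Pgam1) in fat cells. The 9 genes were the ligands Tgfb1, Tgfb2 and Tgfb3, the receptors Tgfbr1 and Tgfbr2, and Ctgf, Thbs1, Postn and Acta2, which are genes of fibrosis. They were taken by name from the 22907 gene symbols measured, through the RefSeq accession of each array probe, with Ctgf matched under its present symbol Ccn2. All 9 were present on the array, with 17 probes in all, and the brightest probe stood for each gene.

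The arrays compared brown adipose tissue (BAT) and gonadal white adipose tissue (gWAT) of Adipo-Pgam1 KO mice with the same depots of littermate controls, to ask how loss of a glycolytic enzyme affects each kind of fat. Each of the 4 groups had 4 samples, labelled as independent and hybridised 1 to an array, which gave 16 arrays. Adipo-Pgam1 KO mice carried Adipoq-Cre and 2 floxed Pgam1 alleles, so that Cre was made where the adiponectin promoter is active, as in adipocytes. The arrays do not show which other cells of the depot kept the gene. Controls are called wild-type (WT) in the labels and, by the methods of the study, carried the floxed alleles without Cre. All mice were male C57BL/6NCrSlc on normal chow, aged 16 weeks except replicate 4 of the KO group in both depots, which was 14 weeks old. The labels do not say whether BAT and gWAT samples of the same number came from the same mouse.

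TGF-beta ligands are made as latent complexes that are stored in the matrix or on cell surfaces and must be released before they act. The free ligand binds the type II receptor Tgfbr2, which then phosphorylates the type I receptor Tgfbr1, and the receptor pair passes the signal to Smad2 and Smad3 and their partner Smad4. In adipose tissue the pathway is known for driving deposition of matrix by fibroblasts and progenitor cells and for restraining adipocyte differentiation and thermogenic gene expression.

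Values are the log2 of the scanner's processed signal over the 75th percentile of its own array, so that 0 is the level of that percentile and 1 unit is a doubling. The 75th percentile lay between 401 and 451 intensity units in BAT controls, 650 and 916 in BAT KO, 570 and 855 in gWAT controls and 657 and 831 in the gWAT arrays labelled KO, and at most 62.2% of the probes of an array were well above background. The brightest probes of all 9 genes were well above background on every array. Pgam1 measured 7.82 to 8.07 in BAT controls and 6.03 to 6.43 in BAT KO, a fall of 1.74 on the log2 scale (SE 0.11, limma adjusted p = 1.11e-05). In gWAT the direction was the opposite of that in the label. Pgam1 was at 5.07 to 5.67 in controls and 5.95 to 6.50 in the arrays labelled KO (0.95 higher, SE 0.19, limma adjusted p = 0.0139), so each gWAT direction is that of the arrays labelled Adipo-Pgam1 KO. BAT control arrays 1 to 3 were on slide 1, BAT control 4 with all BAT KO arrays and gWAT controls 1 to 3 on slide 2, and gWAT control 4 with all gWAT KO arrays on slide 3. Slides 1 and 2 were scanned on the same day and slide 3 on another. Within a slide, each tissue therefore compared 4 KO arrays with 1 control array.

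Promoter sequences are shown for 4 genes that were called higher in KO arrays without overlap, Tgfb1, Tgfb2 and Postn in BAT and Acta2 in gWAT (Tgfb1 in both). They are shown because genes that moved in the same direction differ in the make-up of their start regions. Tgfbr2 met the same rule in gWAT and is described without its sequence. Windows of 250 bases before to 50 bases after the transcription start were read from RefSeq (mouse build GRCm38.p6) for 6 of the 9 genes, 8 windows in all. Tgfb3, Thbs1 and Ctgf had no matching window. Capitals mark, on either strand, GGGCGG as the core of the GC box, TATANAA as the core promoter box bound by TBP, and CAGAC as the longer form of the Smad binding motif, and positions count from 1 at the 5′ end of the window. The Tgfb1 window lies at chr7:25686752-25687051 on the plus strand, the Tgfb2 window at chr1:186705940-186706239 on the minus strand, the Postn window at chr3:54360857-54361156 on the plus strand and the Acta2 window at chr19:34255324-34255623 on the minus strand.
Tgfb1: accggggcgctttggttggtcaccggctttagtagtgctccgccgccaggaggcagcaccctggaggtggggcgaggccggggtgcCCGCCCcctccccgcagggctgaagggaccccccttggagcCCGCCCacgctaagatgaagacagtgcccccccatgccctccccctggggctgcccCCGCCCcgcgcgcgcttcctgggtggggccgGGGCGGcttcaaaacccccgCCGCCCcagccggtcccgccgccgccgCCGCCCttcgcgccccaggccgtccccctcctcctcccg
Tgfb2: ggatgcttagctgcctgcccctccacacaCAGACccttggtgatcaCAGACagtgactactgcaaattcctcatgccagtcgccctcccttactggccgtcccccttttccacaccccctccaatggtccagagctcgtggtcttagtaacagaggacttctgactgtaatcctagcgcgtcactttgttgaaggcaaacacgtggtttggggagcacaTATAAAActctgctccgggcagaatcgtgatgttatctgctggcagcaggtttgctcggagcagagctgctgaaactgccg
Postn: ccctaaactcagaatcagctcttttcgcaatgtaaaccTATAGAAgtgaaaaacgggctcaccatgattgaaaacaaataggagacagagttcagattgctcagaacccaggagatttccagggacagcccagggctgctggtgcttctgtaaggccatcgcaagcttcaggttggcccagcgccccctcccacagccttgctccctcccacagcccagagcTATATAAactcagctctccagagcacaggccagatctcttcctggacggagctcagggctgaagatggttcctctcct
Acta2: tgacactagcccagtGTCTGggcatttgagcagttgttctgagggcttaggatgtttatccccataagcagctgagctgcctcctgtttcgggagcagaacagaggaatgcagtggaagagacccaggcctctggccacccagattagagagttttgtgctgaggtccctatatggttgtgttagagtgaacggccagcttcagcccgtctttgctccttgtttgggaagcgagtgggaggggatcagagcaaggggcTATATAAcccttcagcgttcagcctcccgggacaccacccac

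The Tgfb1 window was 77% G and C and held GGGCGG 6 times, 5 of them read on the opposite strand, with neither TATANAA nor CAGAC. The Tgfb2 window was 54.3% G and C, with CAGAC from positions 30 and 47 and TATANAA from position 220. The Postn window shown was 53% G and C, with TATANAA from positions 39 and 223. Acta2 had TATANAA from position 259 and CAGAC on the opposite strand from position 16, at 54.7% G and C. With 250 bases before the start, the Acta2 TATANAA match lay after that start and the first Postn match near the 5′ end. The window of Tgfbr2, at chr9:116175314-116175613 on the minus strand, was 59% G and C and held CAGAC 1 time, with neither GGGCGG nor TATANAA. The upstream window of Tgfbr1, at chr4:47352972-47353271 on the plus strand, held GGGCGG 2 times. Another Postn window, at chr3:54359017-54359316, and another Tgfbr1 window, at chr4:47385966-47386265, held CAGAC 1 time each. Among all 32851 windows of the same length, 49.6% held CAGAC, 35.7% held GGGCGG and 11.3% held TATANAA. A match describes the letters of the window and is no evidence of binding.

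In BAT of Adipo-Pgam1 KO mice, the ligands Tgfb1 and Tgfb2 and the matricellular genes Thbs1 and Postn rose, by 2.13-fold, 1.79-fold, 9.27-fold and 1.67-fold. All 4 called genes were higher, and the 9 changes were all positive, from 0.12 to 3.21 on the log2 scale, with a median of 0.74 against -0.081 over all 14277 genes tested. The 4 calls are to be read against the background of this comparison, in which 61.5% of the genes tested were called and 27.5% were called higher (limma, Benjamini-Hochberg adjusted p under 0.05). Without an overlap between KO and control arrays stood Tgfb1, Tgfb2, Tgfbr1 and Postn, and 57.1% of all genes tested had no overlap. The receptors, Tgfb3, Ctgf and Acta2 did not pass the threshold. Scaling by Agilent's spike-in controls moved the median change of all genes to 0.47 and called all 9 genes higher, whereas scaling by Actb and Rplp0 moved it to -0.67 and called Tgfb1 higher and Tgfbr1 lower. The plot of the 9 genes by array shows these values.

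**Figure D1:**
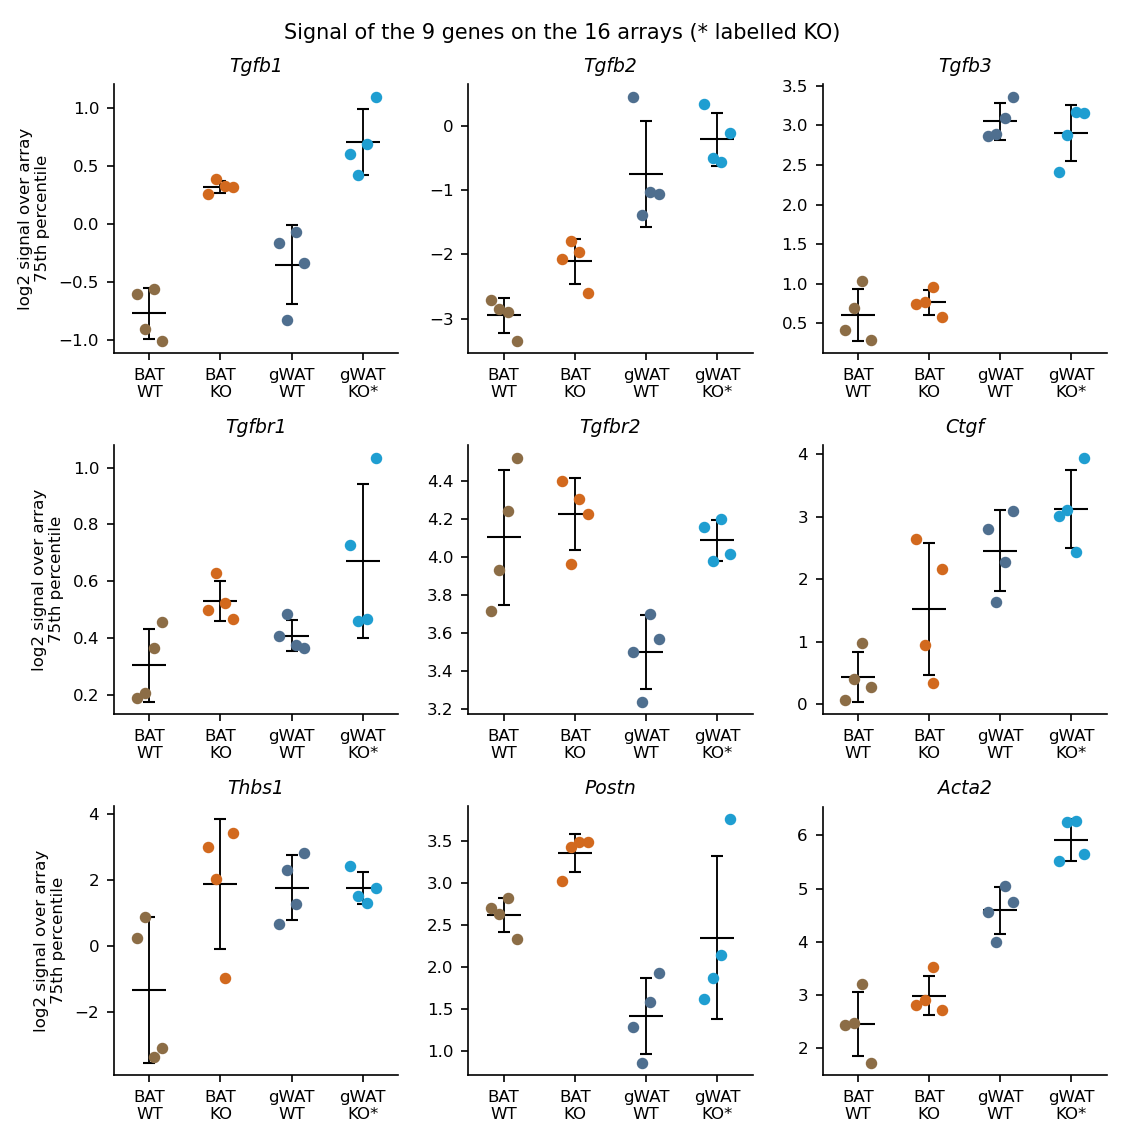
Log2 signal over the array's 75th percentile (y axis) of each gene on each of the 16 arrays, by group (x axis; the asterisk marks the gWAT group labelled KO). Points are arrays, horizontal bars are group means and whiskers are 1 SD (n = 4). Tgfb1 lies higher in KO arrays than in control arrays of both depots without overlap, whereas Thbs1 ranges from -3.36 to 0.90 among BAT control arrays alone.

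Tgfb1, the ligand that is most broadly made and abundant in macrophages and platelets, measured -0.60, -0.91, -0.56 and -1.0 in the 4 BAT control arrays and 0.26, 0.38, 0.32 and 0.32 in the 4 BAT KO arrays. The KO arrays lay close together and above every control array. The rise was 1.09 (SE 0.12, limma adjusted p = 0.000101), with an exact two-sided permutation p of 0.0286, the smallest that 4 arrays against 4 can give. Tgfb2, a ligand known for its part in development, measured -2.71, -2.84, -2.90 and -3.34 in control and -2.07, -1.79, -1.97 and -2.60 in KO arrays. Here too every KO array lay above every control array, with KO array 4 nearest to the controls. Its rise was 0.84 (SE 0.20, limma adjusted p = 0.00597), and with normexp background correction it was 0.20 and not called. Tgfb3, a ligand with roles in wound repair, measured 0.41, 0.69, 1.03 and 0.29 in control and 0.75, 0.77, 0.96 and 0.58 in KO arrays. These groups overlapped, and the difference of 0.16 had a 95% interval from -0.23 to 0.54 (limma adjusted p = 0.444). Under scaling by Actb and Rplp0, the BAT value of Tgfb3 was -0.43, while the rises of Tgfb1 and Tgfb2 had the same direction at 0.50 and 0.25, the latter past no threshold.

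Of the receptors, Tgfbr1, the type I receptor kinase, measured 0.19, 0.21, 0.36 and 0.45 in BAT control and 0.50, 0.63, 0.52 and 0.47 in BAT KO arrays. The groups stood apart by a narrow margin, with a difference of 0.23 (SE 0.097, limma adjusted p = 0.0718). Tgfbr1 was called higher with quantile normalisation (limma adjusted p = 0.0437), with the mean of all probes (0.0248) and without control array 4 (0.0353). It was also called by the methods' t-test (adjusted p = 0.0378). Tgfbr2, the type II receptor that binds the ligand, measured 3.71, 3.93, 4.24 and 4.52 in control and 4.40, 3.96, 4.31 and 4.22 in KO arrays. The KO arrays fell inside the control range, and the difference of 0.12 had a 95% interval from -0.30 to 0.54. With Actb and Rplp0 scaling both values were negative, -0.36 for Tgfbr1 (limma adjusted p = 0.0238) and -0.47 for Tgfbr2, and against the single control array of their own slide the KO arrays differed by 0.074 for Tgfbr1 and -0.30 for Tgfbr2.

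Among the target genes, Postn, which encodes the matricellular protein periostin, measured 2.70, 2.64, 2.82 and 2.34 in BAT control and 3.02, 3.43, 3.49 and 3.50 in BAT KO arrays. No control array reached the lowest KO array, and Postn rose by 0.74 (SE 0.15, limma adjusted p = 0.00252), or 0.15 with no call under Actb and Rplp0 scaling. Thbs1, whose product thrombospondin 1 can release latent TGF-beta, measured 0.24, 0.90, -3.36 and -3.09 in control and 3.01, 2.05, -0.96 and 3.43 in KO arrays. Both groups were split, with control arrays 3 and 4 far below control arrays 1 and 2, and KO array 3 lay inside the control range. Its rise of 3.21 had an SE of 1.24 and a limma adjusted p of 0.0498, and the exact two-sided permutation p was 0.114. The call was lost without control array 3 or 4 or without KO array 1, 2 or 4, over which the adjusted p ran from 0.0945 to 0.129. It was also lost with quantile normalisation (adjusted p = 0.0535), without the filter (0.0603), with the mean of all probes (0.0560), by the methods' t-test (0.109), under Actb and Rplp0 scaling (0.0756) and with the slide as a random block (0.0541). The change without any 1 array ran from 2.54 to 4.16.

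Ctgf, a secreted matricellular factor that TGF-beta induces, measured 0.061, 0.41, 0.99 and 0.28 in BAT control and 2.64, 0.96, 0.34 and 2.17 in BAT KO arrays. KO arrays 1 and 4 were far above the controls and KO arrays 2 and 3 were within their range, which left a difference of 1.09 (SE 0.48, limma adjusted p = 0.0764). Without KO array 3 the difference was 1.49 and passed the threshold. Ctgf was also called with normexp background correction (limma adjusted p = 0.0402) and with normexp and quantile normalisation (0.0464). Acta2, the smooth muscle actin that also marks myofibroblasts, measured 2.43, 2.47, 3.20 and 1.72 in control and 2.80, 2.90, 3.53 and 2.71 in KO arrays. These groups overlapped through control array 3, and the difference was 0.53 (SE 0.31, limma adjusted p = 0.16), or -0.060 with Actb and Rplp0 scaling. Against the control array of their own slide the BAT KO arrays were higher by 1.33 for Tgfb1, 1.23 for Tgfb2, 4.98 for Thbs1, 1.03 for Postn and 1.26 for Acta2. With the slide as a block, Tgfb1, Tgfb2 and Postn were called, Acta2 was called as well (adjusted p = 0.0285), and Thbs1 was not (adjusted p = 0.0672).

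Several lists of cell type markers also changed in BAT. Summed over 8 macrophage markers, the linear level relative to the 75th percentile was 21.7 to 34.5 in BAT controls and 97.8 to 149 in BAT KO, and 8 of 8 markers rose. Over 6 markers of fibroblasts and progenitors it was 28.6 to 32.2 and 47.7 to 67.5, with 5 of 6 risen, and over 7 adipocyte markers it was 2654 to 3154 and 829 to 1176, with 7 of 7 fallen. The platelet list, led by Pf4, went from a range of 3.94 to 8.75 to a range of 34.1 to 49.8, but only 2 of its 5 genes passed the filter on low signal and 1 was called higher. Pericyte markers summed to 39.8 to 50.2 in controls and 29.0 to 35.1 in KO, and 4 of 6 fell. The thermogenic adipocyte list summed to 3348 to 3603 in controls and 1138 to 1832 in KO, and 4 of 5 fell. None of 5 endothelial markers was called, and 1 of 3 tested T cell markers was called higher. Skeletal muscle markers reached 112 in KO array 1 and 19.8 in KO array 3 against at most 1.87 on every other BAT array. The part of these cells in the changes of the 9 genes was not tested, and in whole tissue fewer cells of a type and less RNA per cell cannot be told apart.

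In gWAT, the arrays labelled Adipo-Pgam1 KO had higher Tgfb1, Tgfbr2 and Acta2 than control arrays, by 2.07-fold, 1.50-fold and 2.51-fold. These 3 calls compare with 17.8% of the 14146 genes tested that were called and 9.97% that were called higher, and the same 3 genes were the ones whose groups did not overlap, against 24.2% of all genes. Of the 9 changes 7 were positive, with a median of 0.58 against 0.047 over all genes tested. No member was called lower.

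Tgfb1 measured -0.16, -0.83, -0.069 and -0.34 in gWAT control arrays and 0.60, 0.43, 0.69 and 1.1 in the gWAT arrays labelled KO. It rose by 1.05 (SE 0.21, limma adjusted p = 0.0139), close to the size of its rise in BAT. Tgfb2 measured 0.45, -1.39, -1.02 and -1.05 in control and 0.34, -0.50, -0.56 and -0.11 in labelled KO arrays. Control array 1 lay above all other gWAT arrays, and the difference was 0.54 (SE 0.39, limma adjusted p = 0.361). Without that array it was 0.94 and passed the threshold. Tgfb3 measured 2.87, 2.89, 3.09 and 3.36 in control and 2.41, 2.88, 3.17 and 3.15 in labelled KO arrays, with groups that overlapped and a difference of -0.15 (95% interval -0.61 to 0.31) that was 0.25 under spike-in scaling.

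Tgfbr2 measured 3.50, 3.24, 3.70 and 3.57 in gWAT control arrays and 4.16, 3.98, 4.20 and 4.01 in the gWAT arrays labelled KO. All labelled KO arrays lay above the controls, and the rise was 0.58 (SE 0.13, limma adjusted p = 0.0222). The call was lost without control array 2, without labelled KO array 1 or 3, or with no filter on dim probes (limma adjusted p = 0.0611). Tgfbr1 measured 0.41, 0.48, 0.37 and 0.36 in control and 0.73, 0.46, 0.47 and 1.03 in labelled KO arrays. Labelled KO arrays 1 and 4 were above the controls and the other two at the top of their range, for a difference of 0.26 (SE 0.15, limma adjusted p = 0.25).

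Acta2 measured 4.56, 4.0, 5.06 and 4.75 in gWAT control arrays and 5.51, 6.25, 6.27 and 5.65 in the gWAT arrays labelled KO. The groups were separate, and Acta2 rose by 1.33 (SE 0.27, limma adjusted p = 0.0144). Ctgf measured 2.81, 1.63, 2.28 and 3.10 in control and 3.02, 3.11, 2.44 and 3.95 in labelled KO arrays, overlapping at a difference of 0.67 (SE 0.38, limma adjusted p = 0.249). Postn measured 1.29, 0.86, 1.58 and 1.93 in control and 1.62, 1.88, 2.14 and 3.77 in labelled KO arrays, where array 4 stood above the rest, for a difference of 0.93 (SE 0.45, limma adjusted p = 0.18). Thbs1 measured 0.66, 2.31, 1.27 and 2.83 in control and 2.44, 1.51, 1.32 and 1.75 in labelled KO arrays. The labelled KO values lay inside the control range, and the difference of -0.015 had a 95% interval from -1.07 to 1.04 and was 0.38 under spike-in scaling and 0.11 under median centring.

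Against the single control array of the same slide, the gWAT arrays labelled KO were higher by 1.04 for Tgfb1, 0.52 for Tgfbr2 and 1.17 for Acta2, in 4 of 4 arrays each. With the slide as a block, none of the 9 genes was called (limma adjusted p = 0.179 for Tgfb1, 0.274 for Tgfbr2 and 0.228 for Acta2), and 184 genes were called in all in place of 2521. Macrophage markers summed to 71.8 to 108 in gWAT controls and 73.3 to 199 in the labelled KO arrays, and 1 of 8 rose. Labelled KO array 4 had the 199 and also had the highest Tgfb1, Tgfbr1, Ctgf and Postn of its group. The same array had the highest fibroblast and progenitor, endothelial and pericyte sums of its group and the lowest adipocyte sum. It was also the only array of its group from a mouse aged 14 weeks. Which of these went with the values of the 4 genes was not tested. Fibroblast and progenitor markers overlapped at 49.3 to 77.9 and 41.3 to 84.9. The thermogenic adipocyte list summed to 20.6 to 51.0 in controls and 108 to 284 in the labelled KO arrays, and 2 of its 3 tested genes, Cidea and Cox8b, rose (1 with the slide as a block). The skeletal muscle list summed to 3.44 to 25.5 in controls and 30.5 to 58.4 in the labelled KO arrays, with none of 4 tested genes called. Of these only Acta1, the skeletal muscle actin, had a positive value, at 2.20 (limma adjusted p = 0.0504), and the list median was -0.36. Their part in the values of Acta2 and the other genes was not tested.

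**Figure D2:**
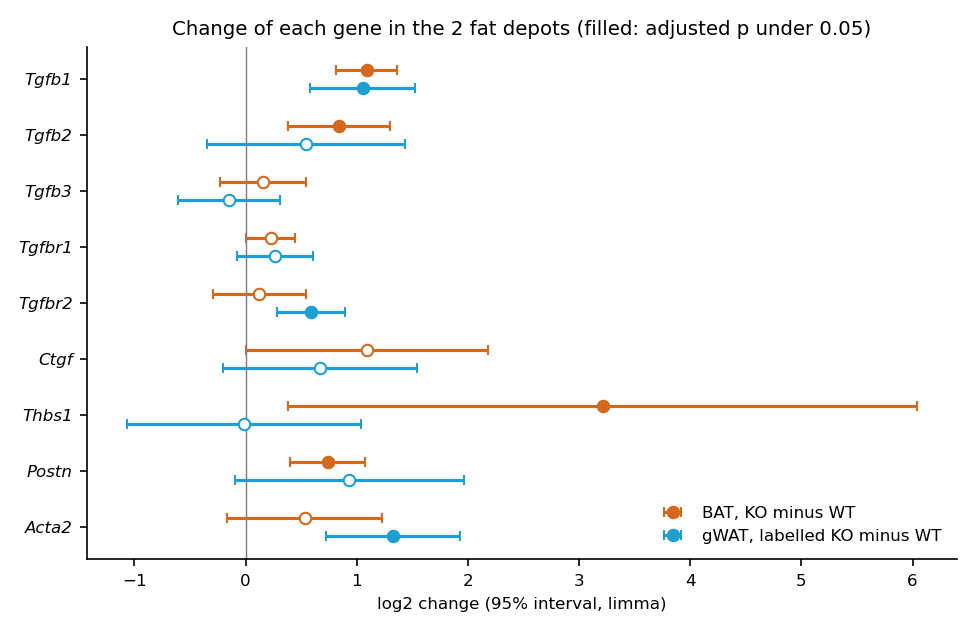
Log2 change (x axis, with 95% interval from limma, n = 4 against 4) of the 9 genes in BAT (KO minus WT) and gWAT (labelled KO minus WT). Filled points passed an adjusted p of 0.05. Tgfb1 is filled in both depots, at 1.09 and 1.05, and Thbs1 has the widest interval, from 0.38 to 6.04 in BAT. The BAT values of Tgfb3, Tgfbr1, Tgfbr2 and Acta2 were below 0 under Actb and Rplp0 scaling, and the gWAT values of Tgfb3 and Thbs1 above 0 under spike-in scaling.

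Whether the change differed between the depots was tested as the gWAT change minus the BAT change in a model of all 16 arrays. None of the 9 genes passed the threshold in limma, where 48.3% of the 14817 genes tested did, and Thbs1 alone had an unadjusted p under 0.05. The Thbs1 difference was -3.23 (SE 1.44, adjusted p = 0.0781), with BAT control values that ran from -3.36 to 0.90. For Tgfb1 the difference was -0.037, with a 95% interval from -0.56 to 0.49 and a sign that turned under median centring (0.057) and under Actb and Rplp0 scaling (0.50). Tgfbr2 was called in gWAT but not in BAT, and the test of that difference gave 0.46 (SE 0.23, limma adjusted p = 0.11). Acta2, likewise, had a difference of 0.79 (SE 0.43, limma adjusted p = 0.143), and with the slide as a block it was -0.099.

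The median difference of the 9 genes between the 2 depots of control mice was 2.02, against -0.097 over all genes tested. In gWAT controls Tgfb1, Tgfb2, Tgfb3, Ctgf, Thbs1 and Acta2 were higher and Tgfbr2 and Postn lower than in BAT controls, so 8 of 9 were called, beside 67.7% of the 14301 genes tested, where 30.7% were called higher and 37% lower in gWAT. The groups did not overlap for 6 of the 9, against 60.8% of all genes. Tgfb3 was 2.45 higher (limma adjusted p = 4.84e-08), Tgfb2 2.20 higher (adjusted p = 3.6e-05), Acta2 2.14 higher (adjusted p = 1.91e-05), Ctgf 2.02 higher (adjusted p = 0.00139) and Thbs1 3.10 higher (adjusted p = 0.0139). The gWAT level minus the BAT level was -1.21 for Postn (limma adjusted p = 0.00852) and -0.60 for Tgfbr2 (adjusted p = 0.00428), and under spike-in scaling neither was called, at -0.97 and -0.37. Tgfbr2 was also not called with quantile normalisation (-0.28, limma adjusted p = 0.116) or with normexp and quantile normalisation (-0.31, adjusted p = 0.0663). Tgfb1 was 0.42 higher in gWAT (adjusted p = 0.0433), and this call was lost without BAT control 2 or 4, any BAT KO array, gWAT control 1, 3 or 4, or labelled KO array 3 of gWAT, over values of 0.33 to 0.42. The Tgfb1 call was also lost under Actb and Rplp0 scaling, at 0.085, and with quantile normalisation, median centring, no filter, the mean of all probes and the slide as a fixed block, at 0.38 to 0.65. Without BAT control array 3, Thbs1 was 2.42 higher and no longer called. Tgfbr1 differed by 0.10 (95% interval -0.16 to 0.36), or by -0.23 under Actb and Rplp0 scaling. On slide 2, which held 3 gWAT control arrays and 1 BAT control array, the difference was 2.66 for Tgfb3, 2.69 for Tgfb2, 2.82 for Acta2 and -1.09 for Postn.

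Ordered by group mean, Acta2 ran from BAT control through BAT KO and gWAT control to gWAT labelled KO over 3.47 log2 units, and only the first pair of neighbours overlapped. Tgfb2 had the same order over 2.74 units, with an overlap only between the gWAT groups. Ctgf also had this order over 2.69 units, but each pair of neighbours overlapped. Tgfb1 ran from BAT control and gWAT control, which overlapped, to BAT KO and then gWAT labelled KO, each separate from the group before it, over 1.47 units. Thbs1 was lowest in BAT controls and highest in BAT KO, 3.21 units apart, with overlapping neighbours except between BAT control and gWAT labelled KO. Postn and Tgfbr2 had their lowest mean in gWAT controls and their highest in BAT KO, over 1.94 and 0.72 units. Tgfb3 split by depot, with both gWAT groups above both BAT groups and an overlap within each depot, and Tgfbr1 spanned only 0.37 units with every pair of neighbours overlapping. All 4 mesothelial markers were called higher in gWAT than in BAT controls, and their sum was 9.16 to 27.2 in gWAT controls and 0.0648 to 0.0991 in BAT controls. Macrophage and fibroblast markers were higher in gWAT controls too (8 of 8 and 5 of 6 called). The share of these cells in the depot differences was not tested.

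Of the 9 genes, 6 had more than 1 probe, and the other probes were compared with the brightest as a second reading of the same gene. For Postn the other probes were annotated to another transcript than the brightest. Acta2 had 3 probes, all of them called higher in gWAT (0.87 to 1.33), and its 2 dimmer probes were called higher in BAT as well, at 0.76 (limma adjusted p = 0.00126) and 1.05 (adjusted p = 0.0325). The Acta2 probe with 1.05 was well above background on 3 of 4 BAT control arrays and passed the filter in BAT through the KO arrays. Both Tgfb1 probes were called in BAT, at 1.09 and 1.36, whereas in gWAT the dimmer probe had 0.72 (adjusted p = 0.0622). That dimmer Tgfb1 probe was well above background on 2 of 4 BAT control arrays. The other Tgfb2 probe was not well above background on any BAT control array, so its level in BAT KO was at least 1.53-fold higher and in gWAT controls at least 4.08-fold higher. These bounds were not tested. Here a bound sets the mean of the brighter group against, on each dim array, the higher of the probe's own signal and the lowest signal among probes well above background.

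The other Tgfb2 probe had a change of 0.0063 in gWAT, against 0.54 by the brightest probe. For Tgfbr1 the dimmer probe went the other way in gWAT, at -0.52 (limma adjusted p = 0.084) against 0.26, and was called higher in BAT, at 0.41 (adjusted p = 0.0296), so its difference between depots of -0.92 was called (adjusted p = 0.00535) while that of the brightest probe, 0.038, was not. Of the 3 Postn probes 2 were called in BAT, over changes of 0.39 to 0.74, and none in gWAT, over 0.87 to 1.01. The second Thbs1 probe, well above background on 2 of 4 BAT control arrays, had 3.01 in BAT (adjusted p = 0.0658) and -0.43 in gWAT. The plot of changes by probe shows both readings.

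**Figure D3:**
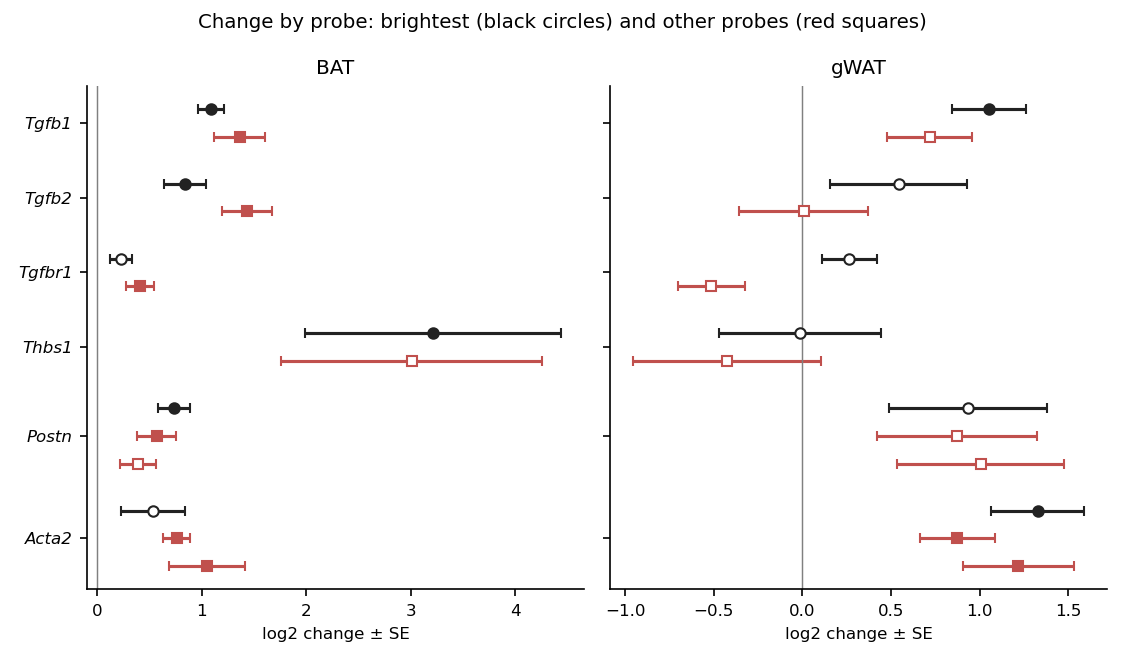
Log2 change with its SE (x axis) for each probe of the 6 genes with more than 1 probe, in BAT (left) and gWAT (right), KO or labelled KO minus WT, n = 4 against 4. Black circles are the brightest probe, red squares the others, and filled symbols passed an adjusted p of 0.05. Probes of a gene lie on the same side of 0 in BAT, whereas the 2 Tgfbr1 probes lie on opposite sides in gWAT, at 0.26 and -0.52. Under Actb and Rplp0 scaling the brightest probes of Tgfbr1 and Acta2 in BAT were below 0, at -0.36 and -0.060.

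Other genes of the pathway in BAT were counted in 7 lists, to be read beside the 61.5% of all genes that were called and the 27.5% that were called higher. Of 11 genes of latency and activation 9 were tested, 4 rose and 3 fell, with a median of 0.26, or -0.34 under Actb and Rplp0 scaling. Nrros, which holds latent TGF-beta on macrophages, rose by 2.19 (SE 0.18), and Ltbp2, a matrix protein of the latent TGF-beta binding family, fell by 2.93 (SE 0.22). None of 5 co-receptors and receptor partners rose and 3 fell, at a median of -0.39. These were Zfyve9, which presents Smads to the receptors, at -0.47, Tgfbrap1, a receptor-associated protein, at -0.42, and Acvrl1, a type I receptor of endothelial cells, at -0.39, and under spike-in scaling they were at 0.081, 0.13 and 0.16. The call of Zfyve9 was lost without any 1 of control arrays 2 and 3 and KO arrays 1, 2 and 4, and that of Acvrl1 without control array 2 or 3 or KO array 1. The co-receptors Tgfbr3 (0.13, adjusted p = 0.531) and Eng (-0.15, adjusted p = 0.652) were not called, and both turned sign with the slide as a block, to -0.33 and 0.39. Smad3 rose by 1.24 (SE 0.27, limma adjusted p = 0.0038), whereas Smad2 at 0.080 and Smad4 at 0.13 were not called and were at -0.51 and -0.46 under Actb and Rplp0 scaling.

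Of 10 inhibitors in BAT, 4 rose and 3 fell (median 0.19, or -0.40 under Actb and Rplp0 scaling). Tgif1, a corepressor of Smads, rose by 3.32 (SE 0.25), and Pmepa1, a TGF-beta induced membrane protein that limits Smad signalling, fell by 2.04 (SE 0.33). Of 12 other matrix targets, 9 rose and 2 fell, with a median of 1.64. Timp1, an inhibitor of matrix metalloproteinases, rose by 3.84 (SE 0.44) and Adam12, a membrane metalloproteinase, fell by 1.96 (SE 0.17). Among 8 relatives of the matricellular genes, 7 were tested and 5 rose (median 1.51), led by the thrombospondin Thbs2 at 2.0 (SE 0.21). Of the smooth muscle contractile genes, which share a programme with Acta2, 2 of 9 tested rose (median 0.17, or -0.42 under Actb and Rplp0 scaling), with Actg2, the actin of visceral smooth muscle, 1.44 higher (SE 0.28).

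In gWAT each of these lists had at most 2 genes past the threshold, where 17.8% of all genes were called. None of 9 genes of latency and activation and none of 3 Smads was called. Tgfbr3, the co-receptor betaglycan, fell by 0.61 (SE 0.16, limma adjusted p = 0.0366), a call that was lost without any 1 array other than control array 1, while Eng at 0.59, Acvrl1 at -0.52, Zfyve9 at 0.21 and Tgfbrap1 at -0.048 were not called, and Tgfbrap1 was at 0.35 under spike-in scaling. Smad2 was at 0.25, Smad3 at 0.031 and Smad4 at -0.025, the last at 0.37 under spike-in scaling. Among the inhibitors Tgif1 rose by 0.97 (SE 0.26, adjusted p = 0.036) and Pmepa1 fell by 0.78 (SE 0.18, adjusted p = 0.0214), where Pmepa1 was not called without labelled KO array 1 or 3 and Tgif1 not without any 1 array other than control array 1 and labelled KO array 3. None of 11 other matrix targets was called. Ccn5, a relative of Ctgf, rose by 3.35 (SE 0.38, adjusted p = 0.00226), and Des, the muscle intermediate filament desmin, rose by 1.52 (SE 0.20, adjusted p = 0.00374) as 1 of 2 contractile genes called out of 9. The medians of the gWAT lists lay between -0.17 and 0.77, beside 0.047 over all genes.

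For the 3 genes whose group means spread most, the profile over the 16 arrays was compared with that of 12356 genes well above background on every array, by the root mean square difference between profiles centred on their own mean. Nearest to Acta2 were Hspb2 (0.434), Morc4 (0.456) and Tvp23bos (0.459), where the median over all genes was 1.51. Nearest to Tgfb2 were Tmem158 (0.381), Fxyd6 (0.392) and Sh3tc1 (0.419), where the median was 1.28. Among the 3 nearest to Thbs1, at a larger distance, were Gfpt2 (0.986) and Sphk1 (1.0), where the median was 2.0. These arrays share depot and genotype groups, so a short distance describes the pattern only.

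Gfpt2 and Sphk1 were picked for closeness to Thbs1 over these same arrays, so a shared pattern follows from that choice. Both had the split of Thbs1 among the BAT control arrays. Gfpt2 measured -0.45, -0.58, -2.33 and -2.28 in BAT control arrays 1 to 4, and Sphk1 -0.019, -0.34, -2.76 and -3.09. In each case arrays 1 and 2 lay above arrays 3 and 4, as for Thbs1. Among BAT KO arrays, array 3 was the lowest for all 3 genes, at -0.86 for Gfpt2 and -0.41 for Sphk1. Both were called higher in BAT KO, at 2.06 and 2.62 (limma adjusted p = 0.0241 and 0.0293). In gWAT neither was called, at 0.089 and 0.12, and Thbs1 had -0.015.

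**Figure D4:**
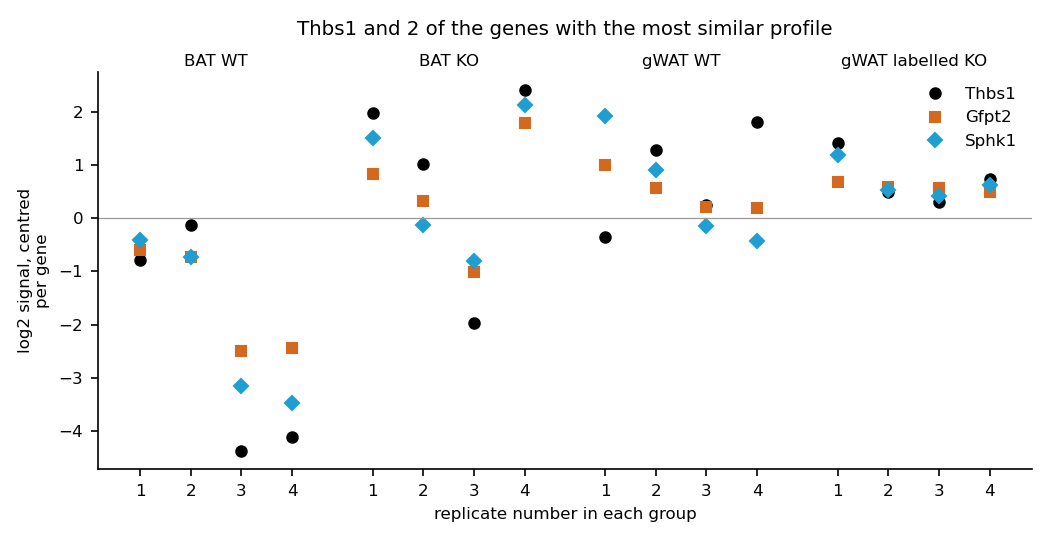
Log2 signal centred on each gene's mean over 16 arrays (y axis) of Thbs1, Gfpt2 and Sphk1, for replicates 1 to 4 of each group (x axis). Each symbol is 1 array. Gfpt2 and Sphk1 were chosen by their closeness to Thbs1 on these arrays. BAT control arrays 3 and 4 lie below arrays 1 and 2 for all 3 genes, and BAT KO array 3 lies below the other BAT KO arrays. The gWAT difference of Thbs1, -0.015, was 0.38 under spike-in scaling.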

How the data were processed

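RNA of 16 adipose samples was labelled with Cy3 and hybridised to 1-colour Agilent mouse arrays. Per the labels the scans were read with Agilent Feature Extraction 10.7.1.1, and the deposited scanner files give intensity per spot, with local background subtracted and low values raised to a floor by that software. A deposited table of intensity values normalised by the authors in GeneSpring was an alternative, as were quality marks as deposited for filters.

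Log2 processed signals were scaled to the 75th percentile of each array over non-control probes, with spots marked as outliers left out. Of 56605 probes, 32989 were matched through RefSeq accessions to 1 of 22907 symbols, and the brightest probe stood for a gene. Genes were tested where each of the 4 arrays of 1 or more of the groups compared had them well above background, in R 4.3.3 with limma 3.58.1 (lmFit, eBayes) and Benjamini-Hochberg adjustment over all genes tested, threshold 0.05. BAT and gWAT were fitted on their own 8 arrays, and depots and their differences on 16. Single values had exact two-sided permutation tests (70 splits). The number of arrays limits the precision, and no probe was saturated. Low values are compressed by the signal floor.

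Named genes were the 9 members, the called gene with the largest rise and the largest fall of each pathway list in each tissue, every tested gene of lists of 5 or fewer, Pgam1, and the 3 genes of most similar profile. A gene of the matrix target list is not reported here and is not counted in that list. The members and lists were chosen with earlier results of these data known. Scripts were tested on simulated data. Alternatives were quantile normalisation, normexp (offset 50, on median signals), median centring, spike-in and Actb and Rplp0 scaling, the filter, the mean of all probes, an intensity trend, the methods' t-test, slide and replicate blocks, and each array left out. The marker lists covered adipocytes, thermogenic adipocytes, fibroblasts and progenitors, pericytes, macrophages, T cells, endothelium, platelets, skeletal muscle, mesothelium and epididymal epithelium.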

Additional observations from a re-analysis of the deposited data

Results flagged for a closer look

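Postn in BAT KO replicate 1, at 3.02, was the lowest of its group by a wide gap to the next array. It was the only such value among 36 groups of 4 arrays tested over the 9 genes, and chance gives about 1 in 20.

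For other named genes of the pathway, the gWAT change minus the BAT change passed the test of the difference in limma, as did 48.3% of all genes tested. Most were named for the largest called rise or fall of their list in 1 tissue of these same data, a choice that favours a difference. The difference was positive for Ltbp2 (3.28), Ccn5 (3.15), Adam12 (1.64), Pmepa1 (1.26) and Zfyve9 (0.68), and Pgam1 itself had 2.69. It was negative for Thbs2 (-2.67), Timp1 (-2.38), Tgif1 (-2.35), Nrros (-1.99), Actg2 (-1.56), Smad3 (-1.21) and Tgfbr3 (-0.73). Among the members, the difference passed for the other probe of Tgfb2 (-1.43) and of Tgfbr1 (-0.92), where the brightest probes had -0.30 and 0.038 and did not pass. The Tgfb2 value rests on a BAT control level that was not well above background on any of 4 arrays, for which the change in BAT is only a bound.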

How the results depend on the processing

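The rises of Tgfb1 in both tissues and of Acta2 in gWAT, by the brightest probe, kept their direction in every alternative, and their calls in each but the slide block in gWAT. The 4 members called in BAT became 9 under spike-in scaling and 2 under Actb and Rplp0 scaling, and 3 to 5 without any 1 array. The 3 in gWAT became 0 with the slide as a fixed block, 2 with no filter and 2 to 4 without any 1 array. The 0 that differed between tissues became 2 under Actb and Rplp0 scaling and 1 with the mean of all probes, and 0 to 2 without any 1 array (2 without BAT WT 1). The 8 that differed between depots became 6 with quantile normalisation or spike-in scaling, 7 with median centring, Actb and Rplp0 scaling, normexp and quantile normalisation, or no filter, 5 with the slide as a fixed block (Tgfb1, Ctgf and Postn lost) and 7 to 8 without any 1 array. The causes were not tested.

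Over all genes, higher and lower calls in BAT were 3927 and 4848, against 7141 and 1748 under spike-in scaling, 1917 and 8900 under Actb and Rplp0 scaling and 4024 and 8803 without the filter. In gWAT 1410 and 1111 became 983 and 401 with median centring, 5462 and 341 under spike-in scaling and 66 and 118 with the slide block. The 2521 gWAT calls became 1384, 5803 and 184 in these settings, 1138 without the filter, 1618 by the methods' t-test, and 1080 to 3209 without any 1 array. The 7161 differences between tissues (4056 and 3105) became 7165 and 1395 under Actb and Rplp0 scaling and 3264 with the slide block. Depot calls of 4396 and 5288 became 5131 and 3782 under spike-in scaling and 2997 and 7310 under Actb and Rplp0 scaling.

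The replicate number as a block called 5 members in BAT (Acta2 added, adjusted p = 0.0231) and 2 in gWAT (Tgfbr2 lost, adjusted p = 0.0624), with 1088 gWAT genes. Deviations of same-numbered arrays correlated at -0.14 to 0.43 between genotypes and -0.19 to 0.29 between depots, so the numbers were not taken as pairs.

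Signs turned as follows. Under Actb and Rplp0 scaling BAT changes became -0.43 for Tgfb3, -0.36 for Tgfbr1, -0.47 for Tgfbr2, -0.060 for Acta2, -0.51 for Smad2, -0.46 for Smad4 and -0.46 for Tgfbr3. The gWAT change of Smad3 became -0.027, differences between tissues became 0.50 for Tgfb1, 0.24 for Tgfb2, 0.23 for Tgfb3 and 0.11 for Ctgf, and the depot difference of Tgfbr1 became -0.23. Under spike-in scaling BAT changes became 0.16 for Acvrl1, 0.40 for Eng, 0.13 for Tgfbrap1 and 0.081 for Zfyve9. In gWAT they became 0.25 for Tgfb3, 0.38 for Thbs1, 0.37 for Smad4 and 0.35 for Tgfbrap1, and the tissue difference of Tgfbr1 became -0.12. With median centring, gWAT changes became 0.11 for Thbs1, 0.097 for Smad4 and 0.073 for Tgfbrap1, and the tissue difference of Tgfb1 became 0.057. With the slide as a fixed block, BAT changes became -0.30 for Tgfbr2, 0.39 for Eng and -0.33 for Tgfbr3, the gWAT change of Zfyve9 became -0.13, tissue differences became -0.61 for Postn and -0.099 for Acta2, and the depot difference of Tgfbr1 became -0.033. With quantile normalisation the tissue difference of Tgfbr1 became -0.0012 and the gWAT change of Smad3 -0.033. With normexp, tissue differences became 0.25 for Tgfb2 and -0.027 for Postn, and with normexp and quantile normalisation -0.12 for Postn, where Smad3 in gWAT became -0.029. With the mean of all probes, Tgfbr1 became -0.13 in gWAT and -0.44 as a tissue difference, and Smad4 became -0.072 in BAT and 0.084 in gWAT. The other Tgfbr1 probe, compared after its values were seen, had -0.52 in gWAT and -0.92 as a tissue difference.

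Without any 1 array, changes that crossed 0 ran from -0.0082 to 0.26 for Tgfbr2, -0.33 to 0.065 for Eng and -0.054 to 0.19 for Smad2 in BAT. In gWAT they ran from -0.24 to 0.015 for Tgfb3, -0.38 to 0.34 for Thbs1, -0.090 to 0.13 for Smad3, -0.069 to 0.014 for Smad4 and -0.11 to 0.012 for Tgfbrap1. Tissue differences ran from -0.20 to 0.056 for Tgfb1, -0.51 to 0.10 for Tgfb2, -0.083 to 0.11 for Tgfbr1 and -0.28 to 0.44 for Postn.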
